A study of Homo sapiens with 2 samples.

Results

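Aldehyde dehydrogenases (ALDH) are the enzymes that turn reactive aldehydes into carboxylic acids with NAD+ or NADP+ as the electron acceptor. Their transcripts were followed in the human hepatocellular carcinoma line HepG2 after exposure to the Indo-Tibetan polyherbal remedy Padma 28 or to its solvent. The members were 10 genes, taken by symbol: ALDH1A1, ALDH1A2, ALDH1A3, ALDH1B1, ALDH2, ALDH3A1, ALDH3A2, ALDH5A1, ALDH7A1 and ALDH9A1. Every probe set that the platform annotation assigned to one of them was used, which gave 18 of the 54675 probe sets on the array and 10 of the 19775 genes with a probe set of their own. None of the 18 was shared with another gene, and 4 of the genes (ALDH1A1, ALDH2, ALDH3A1 and ALDH9A1) were covered by a single probe set.

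The cells received Padma 28 as its ethanolic extract at 218 μg/ml, against 0.9% ethanol (EtOH) as the solvent control, and RNA was isolated after 18 h. Cells of 3 cultures were pooled within each treatment, and 1 Affymetrix Human Genome U133 Plus 2.0 array was hybridised per pool. The arrays therefore give no spread between cultures, no test between the treatments was possible, and effects of the extract and of the cultures cannot be told apart. Both groups are the same cell line and both media contained ethanol, the substrate from which the liver makes acetaldehyde, so neither array shows the aldehyde dehydrogenases of cells without it, and the amount of ethanol in the extract medium is not stated in the sources used here.

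In the liver this family clears the acetaldehyde formed from ethanol and the aldehydes that arise from lipid peroxidation. Other members have narrower tasks. They produce retinoic acid from retinaldehyde, degrade long-chain fatty aldehydes, or remove the aldehyde intermediates of amino acid, choline, carnitine and γ-aminobutyric acid (GABA) metabolism. The enzymes differ in where they work, with ALDH1A1 in the cytosol and ALDH2 and ALDH1B1 in the mitochondria.

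All levels below are log2 expression values, on which 1 unit is a 2-fold difference, and all differences are Padma 28 minus EtOH. A probe set was taken as above background when it lay at least 2 log2 units over the most frequent value of its array, which set the limit at 4.35 on the Padma 28 array and 4.25 on the EtOH array. By this limit 39.7% of all probe sets were above background on the Padma 28 array and 40.2% on the EtOH array. Of the 18 aldehyde dehydrogenase probe sets, 11 were above background on both arrays and 7 on neither. Levels of different probe sets cannot be set against each other, because each hybridises with its own efficiency, so only the 2 values of the same probe set are compared. In a sample of many cells, a higher signal can come from more RNA per cell or from more cells that make it, which cannot be told apart.

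The labelled cell type was compared with its markers. All 14 measured hepatocyte markers, of the 16 listed, were above background on both arrays, with ALB (albumin) at 16.52 with Padma 28 and 16.62 with EtOH and AFP, a fetal serum protein that hepatoma cells make, at 15.73 with Padma 28 and 15.96 with EtOH. On the brightest probe set of each, the differences ran between -0.55 and -0.04, so all 14 were lower on the Padma 28 array. Among all 10186 genes above background on both arrays, 58.3% had a difference above 0. The median of the 14 was -0.12, while the 2 brightest probe sets of a gene differed from each other by a median of 0.14. Fainter probe sets of the hepatocyte markers, also above background on both arrays, spread more widely. The differences reached -1.23 for TF and -1.07 for ALB, while another ALB probe set differed by 0.27 and one of APOA1 by 0.03. Whether this bears on the aldehyde dehydrogenases was not tested. Of the markers of other cell types, 2 of 5 fibroblast markers (COL1A1 at 6.71 with Padma 28 and 6.74 with EtOH, PDGFRB at 5.33 with Padma 28 and 5.94 with EtOH), 1 of 4 endothelial markers (PECAM1, 6.81 with Padma 28 and 6.49 with EtOH) and 0 of 2 measured leukocyte markers were above background. COL1A1 and PECAM1 were above background only on the brightest of their 5 probe sets. The next brightest had 2.73 with Padma 28 and 2.77 with EtOH for COL1A1, and 3.98 with Padma 28 and 4.01 with EtOH for PECAM1. Whether HepG2 makes these 2 transcripts is thus not settled by the arrays. Across 9 measured reference genes the median difference was 0.00.

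The promoter sequences of ALDH1A1 and ALDH1A3 are shown because these enzymes are close relatives that differed in their measurements: ALDH1A1 was the member with the largest difference, and ALDH1A3 was not above background on either array. Each run holds the 250 bases that precede the RefSeq transcription start, 5′ to 3′ on the strand of the gene. The window of ALDH1A1 lies at chr9:72953054-72953303 on the minus strand and that of ALDH1A3 at chr15:100879581-100879830 on the plus strand (GRCh38.p14). Capitals mark CCAAT, a common promoter element, and GCGTG, the core that the aryl hydrocarbon receptor (AhR) recognises with its partner ARNT, on either strand (CACGC where it is read on the other strand).
ALDH1A1: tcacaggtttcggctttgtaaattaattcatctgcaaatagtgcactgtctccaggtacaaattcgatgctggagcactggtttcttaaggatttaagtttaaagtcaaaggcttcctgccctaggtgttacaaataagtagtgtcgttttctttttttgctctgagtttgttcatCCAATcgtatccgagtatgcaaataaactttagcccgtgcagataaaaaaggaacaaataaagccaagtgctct
ALDH1A3: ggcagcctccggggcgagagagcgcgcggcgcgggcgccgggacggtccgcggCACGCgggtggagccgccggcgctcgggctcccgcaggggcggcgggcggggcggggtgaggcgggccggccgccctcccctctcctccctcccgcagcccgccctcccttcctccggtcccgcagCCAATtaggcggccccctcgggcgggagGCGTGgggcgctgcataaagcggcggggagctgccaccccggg

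In both windows CCAAT lay at a similar distance from the start, from 74 to 70 bases before it in ALDH1A1 and from 71 to 67 bases before it in ALDH1A3. In the first of the windows of ALDH1A2 it lay from 62 to 58 bases before the start. This distance was not limited to the retinaldehyde enzymes, since CCAAT lay from 63 to 59 bases before the start in ALDH7A1, while it lay from 30 to 26 bases before it in a window of ALDH3A2 and from 26 to 22, on the other strand, in ALDH1B1. The windows differed in composition, with 38.4% G and C in ALDH1A1 and 82.4% in ALDH1A3. Over all members, 8 of the 10 genes had a window in the RefSeq table (all but ALDH2 and ALDH3A1), and ALDH1A2 and ALDH3A2 had 2 each, so that 10 windows were searched on both strands. CCAAT was found in 6 of the 10, against 32% of all 35116 windows in the table. GCGTG was found in 4 of the 10 (ALDH1A2, ALDH1A3, ALDH3A2 and ALDH5A1), against 32.2% of all windows, and was not among the letters of the ALDH1A1 window. TGACNNNGC, the core of the antioxidant response element, was found in 0 of the 10, against 10.9% of all windows. These are matches of letters in short windows and show no binding.

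Of the 10 aldehyde dehydrogenases, ALDH1A1 was more than 2-fold higher on the Padma 28 array and none was more than 2-fold lower. Among all 19775 genes, 0.875% were more than 2-fold higher and 0.384% more than 2-fold lower. Each gene is represented here by its brightest probe set. The median difference of the 10 members was 0.07, against -0.02 over all genes, and it was also 0.07 for the 9 members without ALDH1A1. Of the 7 members above background on both arrays 6 had a difference above 0 and 1 (ALDH1B1) below, with a median of 0.08. Among the 10186 genes above background on both arrays, 58.3% had a difference above 0 and the median was 0.06.

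**Figure D1:**
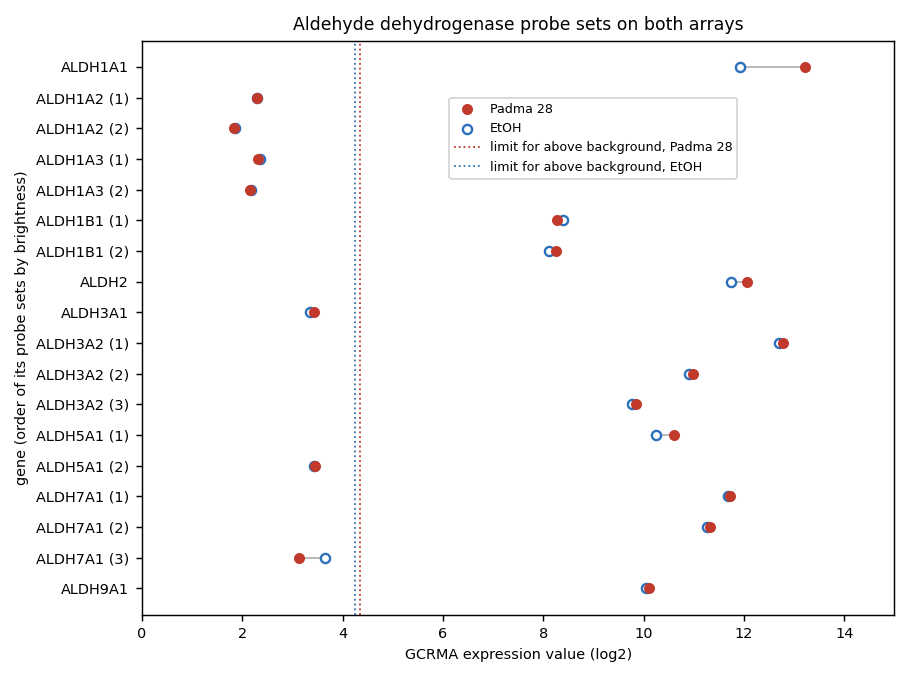
Log2 expression values (horizontal axis) of the 18 aldehyde dehydrogenase probe sets, 1 row each, on the Padma 28 array (filled red circles) and the EtOH array (open blue circles), with dotted lines at the limits for above background, 4.35 (Padma 28) and 4.25 (EtOH). The numbers after a gene order its probe sets by brightness. ALDH1A1, at 13.21 with Padma 28 and 11.92 with EtOH, has the longest line between its circles, and 7 probe sets lie left of the limits.

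The retinaldehyde dehydrogenases ALDH1A1, ALDH1A2 and ALDH1A3 make retinoic acid, the ligand of the retinoic acid receptors, and ALDH1A1 also oxidises aldehydes from lipid peroxidation. ALDH1A1 had a value of 13.21 with Padma 28 and 11.92 with EtOH, a difference of 1.29 or 2.44-fold higher. It was measured by 1 probe set, so no second probe set of the gene can be set beside this value. Among the 10186 genes above background on both arrays 54 had a higher difference, and 0.756% had a larger one in either direction. Of those genes, 1.28% were more than 2-fold higher and 0.609% more than 2-fold lower. The other retinaldehyde dehydrogenases were not above background. The 4 probe sets of ALDH1A2 and ALDH1A3 lay between 1.84 and 2.32 with Padma 28 and between 1.85 and 2.35 with EtOH, near the most frequent values of the Padma 28 array, 2.35, and the EtOH array, 2.25, so no fold change is given for them.

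The mitochondrial enzymes ALDH2 and ALDH1B1 both oxidise acetaldehyde, and ALDH2 is the main enzyme for it in human liver. ALDH2 had 12.07 with Padma 28 and 11.74 with EtOH, a difference of 0.33 or 1.26-fold higher, on its single probe set. A difference larger than this in either direction was present in 27.2% of the 10186 genes. For ALDH1B1, the brighter probe set had 8.27 with Padma 28 and 8.40 with EtOH, whereas the other had 8.25 with Padma 28 and 8.12 with EtOH. Their differences, -0.12 and 0.13, ran in opposite directions, so no direction is given for ALDH1B1. The gap between them was 0.25. Over the 4912 genes with at least 2 probe sets above background on both arrays, the median of this gap was 0.14 and its 90th percentile 0.46, which is the only measure of precision the arrays allow.

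ALDH3A1 and ALDH3A2 are neighbours on chromosome 17, where 1 protein-coding gene, SLC47A2, lies between them. ALDH3A1, which is best known from the cornea and is induced through AhR in several cell types, oxidises aromatic and medium-chain aldehydes. Its only probe set had 3.44 with Padma 28 and 3.36 with EtOH, below the limit on both arrays. ALDH3A2 is the fatty aldehyde dehydrogenase of the endoplasmic reticulum, whose loss causes Sjögren-Larsson syndrome. Its 3 probe sets were all above background and gave nearly the same small difference. The brightest had 12.78 with Padma 28 and 12.70 with EtOH (a difference of 0.08), the next 10.98 with Padma 28 and 10.91 with EtOH (0.07) and the faintest 9.85 with Padma 28 and 9.77 with EtOH (0.07). The gap between the brightest pair was 0.0076, well under the median gap of 0.14.

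The members with narrower metabolic tasks were ALDH5A1, ALDH7A1 and ALDH9A1, and all were above background on their brightest probe set. ALDH5A1, the succinate semialdehyde dehydrogenase that completes the breakdown of GABA, had 10.61 with Padma 28 and 10.25 with EtOH, a difference of 0.36 or 1.28-fold higher. Its other probe set, at 3.45 with Padma 28 and 3.44 with EtOH, was not above background, so the difference comes from 1 probe set. Of the 10186 genes, 24.3% had a larger difference in either direction. ALDH7A1 is antiquitin, which oxidises the semialdehyde formed from lysine and also betaine aldehyde. Its brightest probe set had 11.73 with Padma 28 and 11.69 with EtOH (a difference of 0.03), and the next had 11.33 with Padma 28 and 11.26 with EtOH (0.07). The third, not above background at 3.13 with Padma 28 and 3.64 with EtOH, differed by -0.51, the largest negative difference among the 18 probe sets, at a level for which no fold is given. ALDH9A1, which acts on the aldehydes of carnitine synthesis and of polyamine breakdown, had 10.11 with Padma 28 and 10.04 with EtOH, a difference of 0.07 on its single probe set.

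Apart from ALDH1A1, the differences of the aldehyde dehydrogenase probe sets above background lay between -0.12 and 0.36. In all genes above background on both arrays, the 5th percentile of the difference was -0.45 and the 95th percentile 0.63, so the other 6 members above background lay between these percentiles. ALDH3A2, ALDH9A1 and ALDH7A1 were exceeded in size by 73.5%, 76.7% and 87.3% of these genes.

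**Figure D2:**
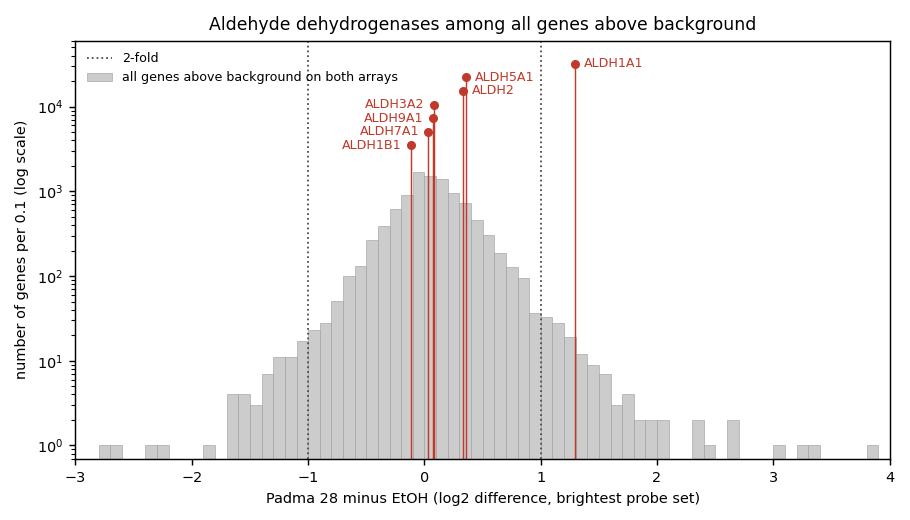
Number of genes (vertical axis, log scale) per 0.1 of the log2 difference Padma 28 minus EtOH (horizontal axis), for the 10186 genes above background on both arrays, with dotted lines at 2-fold. Red lines mark the 7 aldehyde dehydrogenases above background, and their heights only keep the names apart. ALDH1A1 at 1.29 lies past the 2-fold line, while the other 6 lie between -0.12 and 0.36.

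The human ALDH superfamily has 9 further genes, which were set beside the members. Of these 9, 1 was more than 2-fold higher, 0 were more than 2-fold lower and their median difference was -0.04 (all genes: 0.875% higher, 0.384% lower, median -0.02). The gene past 2-fold was ALDH1L1, the cytosolic 10-formyltetrahydrofolate dehydrogenase of the folate cycle, with 9.03 with Padma 28 and 7.44 with EtOH, a difference of 1.59 or 3.01-fold higher. A total of 22 of the 10186 genes had a higher difference. Its other probe set, at 4.21 with Padma 28 and 4.11 with EtOH, was not above background. ALDH1L2, the mitochondrial counterpart of ALDH1L1, was above background with Padma 28 only, at 4.47 with Padma 28 and 3.65 with EtOH, which gives at least 1.17-fold higher when the EtOH value is replaced by the limit of its array. Its other probe sets were not above background.

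ALDH4A1 and ALDH18A1, mitochondrial enzymes of proline metabolism, had lower values with Padma 28 on both of their probe sets. ALDH4A1, which forms glutamate in the breakdown of proline, had 10.70 with Padma 28 and 11.33 with EtOH, 1.54-fold lower, and its other probe set was 1.46-fold lower. Among the 10186 genes 225 had a lower difference. ALDH18A1, which runs the reverse route from glutamate to proline, had 12.45 with Padma 28 and 12.83 with EtOH on one probe set and 11.73 with Padma 28 and 12.12 with EtOH on the other, differences of -0.38 and -0.39. ALDH6A1, the methylmalonate semialdehyde dehydrogenase of valine breakdown, had 10.14 with Padma 28 and 10.23 with EtOH on the brightest of its 5 probe sets. ALDH16A1 had 8.50 with Padma 28 and 8.37 with EtOH, and ALDH3B1 had 5.14 with Padma 28 and 5.18 with EtOH. ALDH8A1, at 3.02 with Padma 28 and 3.56 with EtOH, and ALDH3B2, at 2.60 with Padma 28 and 2.63 with EtOH, were below the limits.

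**Figure D3:**
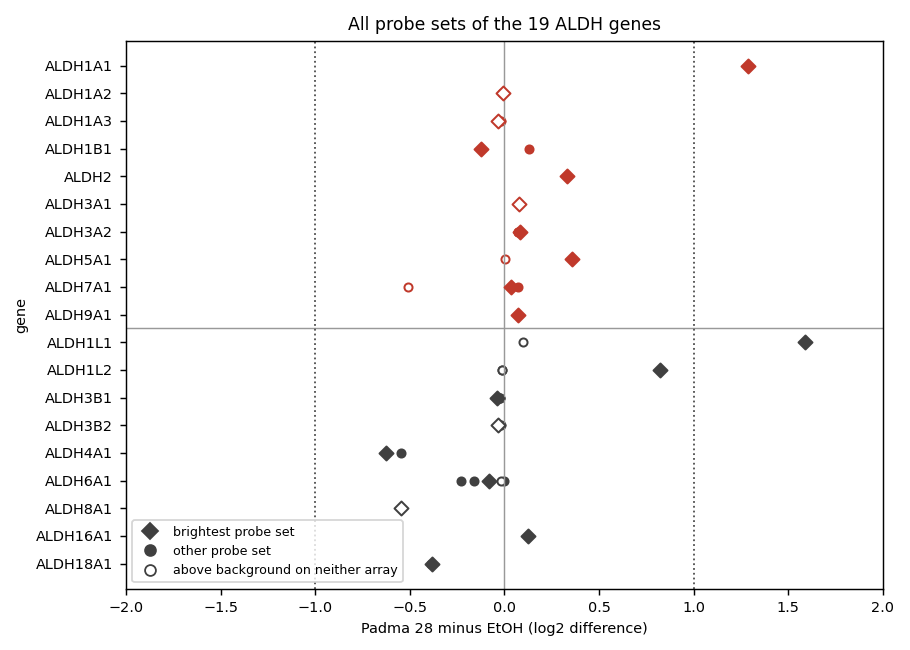
Log2 difference Padma 28 minus EtOH (horizontal axis) of every probe set of the 19 ALDH genes, the 10 members in red above the line and the 9 further genes in grey below it. Diamonds stand for brightest probe sets, circles for the other probe sets of a gene, open symbols are above background on neither array, and dotted lines mark 2-fold. ALDH1A1 at 1.29 and ALDH1L1 at 1.59 are the symbols past 2-fold.

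The enzymes around the members were then compared, in lists of the pathways in which their aldehydes arise or are removed. These lists are described by their counts and medians beside those of all genes, and no test was made. The medians can take in genes that were not above background. Over genes above background on both arrays, they were -0.13 (acetaldehyde and acetate), 0.38 (other aldehyde clearance) and -0.13 (retinoid metabolism). They were 0.08 (fatty aldehydes and sphingolipids), -0.14 (GABA shunt), -0.01 (lysine and choline) and 0.02 (carnitine and polyamines). Over all such genes the median was 0.06. For the formation of acetaldehyde and the use of acetate, 1 of 11 genes was more than 2-fold higher and 0 more than 2-fold lower, with a median of -0.07 (all genes: 0.875% higher, 0.384% lower, median -0.02). The gene past 2-fold by its measured values was ACSS1, the mitochondrial acetyl-CoA synthetase, at 4.99 with Padma 28 and 3.91 with EtOH. It was above background with Padma 28 only, and against the limit of the EtOH array it was at least 1.67-fold higher. Among the alcohol-oxidising enzymes, ADH4 had 10.92 with Padma 28 and 11.05 with EtOH, ADH6 had 9.33 with Padma 28 and 10.09 with EtOH, and catalase (CAT) had 11.79 with Padma 28 and 11.56 with EtOH. ADH1A, ADH1B, ADH1C, ADH7 and CYP2E1 were not above background on either array.

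Reactive aldehydes are also reduced to alcohols or conjugated to glutathione by enzymes outside the ALDH superfamily. The list used here was wider and also held, among others, the oxidases AOX1 and XDH and the dehydrogenase HADH. Of 12 measured genes among the 14 listed, 2 were more than 2-fold higher and 0 more than 2-fold lower, against 0.875% and 0.384% of all genes. The median was 0.26, against 0.07 for the members and -0.02 for all genes. AKR1B10, an aldo-keto reductase that reduces retinaldehyde and lipid aldehydes, had 11.84 with Padma 28 and 7.96 with EtOH, 14.7-fold higher on its single probe set. PTGR1, which reduces the double bond of unsaturated aldehydes such as 4-hydroxynonenal, had 11.75 with Padma 28 and 9.33 with EtOH on its brightest probe set, 5.34-fold higher. The size depended on the probe set, since the next had 10.50 with Padma 28 and 7.61 with EtOH (7.45-fold higher), and the faintest had 7.53 with Padma 28 and 2.75 with EtOH, where the EtOH value was below the limit and the fold was at least 9.68. Differences below 2-fold were 0.64 for GSTA4, the glutathione transferase for 4-hydroxynonenal, and 0.58 for the carbonyl reductase CBR1. Of the 9 genes above background on both arrays 8 had a difference above 0, against 58.3% of all 10186 genes above background on both arrays.

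Retinoid metabolism, the pathway of ALDH1A1, was listed without ALDH1A1 itself and without AKR1B10, both more than 2-fold higher. Among the other genes of the pathway, 19 measured of 23 listed, none was past 2-fold in either direction, and the median was -0.04. For comparison, 0.875% of all genes were more than 2-fold higher and 0.384% more than 2-fold lower, with a median of -0.02. Of the 19 genes, 11 were above background on neither array. The 8 genes above background on both arrays had differences between -0.39 and 0.11. The largest were those of DHRS3, which returns retinaldehyde to retinol, at 9.26 with Padma 28 and 9.65 with EtOH, RDH11, a retinaldehyde reductase, at 11.34 with Padma 28 and 11.62 with EtOH, and the retinoid X receptor RXRA at 9.95 with Padma 28 and 10.23 with EtOH. The other probe set of RXRA differed in the opposite direction, at 9.05 with Padma 28 and 8.68 with EtOH, so no direction is given for it. CYP26A1, which degrades retinoic acid and is a classical target of its receptors, was below the limit at 2.27 with Padma 28 and 2.31 with EtOH, as was the receptor gene RARB at 2.76 with Padma 28 and 2.79 with EtOH.

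The pathways of ALDH3A2, ALDH5A1, ALDH7A1 and ALDH9A1 held 1 gene past 2-fold between them (all genes: 0.875% higher, 0.384% lower, median -0.02). For fatty aldehydes and sphingolipids 0 of 9 measured genes passed 2-fold in either direction (median -0.03). The largest difference there was that of the ceramidase ACER3, at 7.35 with Padma 28 and 6.62 with EtOH, and SGPL1, the lyase that releases the fatty aldehyde from sphingosine 1-phosphate, had 9.71 with Padma 28 and 9.67 with EtOH. In the GABA shunt 0 of 6 passed (median -0.07). Here ABAT, the transaminase that supplies the substrate of ALDH5A1, had 12.25 with Padma 28 and 13.06 with EtOH, 1.76-fold lower. ALDH5A1 itself was 0.36 higher on its 1 probe set above background, a size that 24.3% of the 10186 genes exceeded. GAD1 and GAD2, also on this list, were not above background on either array. GLUD1, glutamate dehydrogenase, had 12.54 with Padma 28 and 12.98 with EtOH. AKR7A2, which reduces the same semialdehyde that ALDH5A1 oxidises, had 11.22 with Padma 28 and 10.84 with EtOH.

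In lysine and choline breakdown, 1 of 9 measured genes was more than 2-fold higher, 0 more than 2-fold lower, and the median was -0.01. Over all genes 0.875% were higher by this measure, 0.384% lower, and the median was -0.02. The gene past 2-fold was BHMT2, a homocysteine methyltransferase, with 9.75 with Padma 28 and 8.72 with EtOH (2.04-fold higher) on its brightest probe set and 7.43 with Padma 28 and 6.65 with EtOH (1.71-fold higher) on the next. Its relative BHMT, which uses the betaine formed from betaine aldehyde, had 8.57 with Padma 28 and 7.95 with EtOH. AADAT, an aminotransferase of lysine breakdown, had 6.84 with Padma 28 and 6.50 with EtOH. For carnitine synthesis and polyamines 0 of 10 passed (median -0.02). SMOX, spermine oxidase, had 9.04 with Padma 28 and 8.51 with EtOH, ODC1, ornithine decarboxylase, had 13.54 with Padma 28 and 13.02 with EtOH, and SAT1, the acetyltransferase of polyamine breakdown, had 14.09 with Padma 28 and 14.47 with EtOH.

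ALDH3A1 is counted in the classical AhR gene battery, and other genes of that battery, with AHR and its partner ARNT, were set beside it. Of these 10 genes, 3 were more than 2-fold higher, 0 more than 2-fold lower, and the median was -0.02. The shares over all genes were 0.875% higher and 0.384% lower, with a median of -0.02. Over the 6 listed genes above background on both arrays the median was -0.12, against 0.06 over all 10186 such genes. CYP1A1, the cytochrome P450 that marks AhR activity, had 12.43 with Padma 28 and 3.76 with EtOH, below the limit of the EtOH array. GSTA1, a glutathione transferase with close paralogues that its probe set may also detect, had 11.33 with Padma 28 and 8.72 with EtOH (6.09-fold higher). The quinone reductase NQO1 had 14.16 with Padma 28 and 12.77 with EtOH on its brightest probe set (2.61-fold higher). Its fainter probe sets were 3.06-fold and 3.22-fold higher. The study also listed GSTA1 and NQO1 under the response to oxidative stress that Nrf2 mediates. ALDH3A1, at 3.44 with Padma 28 and 3.36 with EtOH, was not above background on the same arrays. CYP1B1 and AHRR were likewise not above background, and CYP1A2 had 4.45 with Padma 28 and 4.68 with EtOH, close to the limits. UGT1A6 was not above background on its 1 own probe set, but 5 probe sets that it shares with other genes were left out. Its level is therefore not settled here. TIPARP, an AhR target well above background, had 9.03 on both arrays. AHR itself had 10.50 with Padma 28 and 11.15 with EtOH, and ARNT had 7.38 with Padma 28 and 7.81 with EtOH on its brightest probe set but 7.64 with Padma 28 and 7.29 with EtOH on the next.

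**Figure D4:**
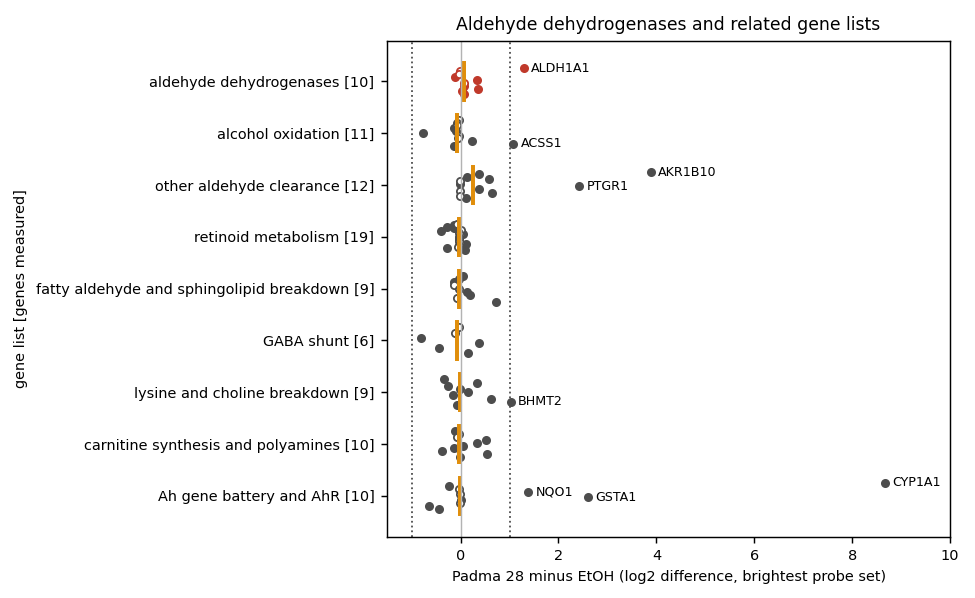
Log2 difference Padma 28 minus EtOH (horizontal axis) of the brightest probe set of each gene, for the 10 aldehyde dehydrogenases (red) and 8 related lists (grey), with the number of measured genes in brackets. Orange bars are list medians, open circles are genes above background on neither array, and dotted lines mark 2-fold. The median of the list of other aldehyde clearance, 0.26, lies farthest from 0, and CYP1A1 lies farthest right.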

How the data were processed

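RNA of 1 pool of 3 HepG2 cultures per treatment was hybridised to 1 array each. The authors turned the probe intensities into log2 values with GCRMA (background correction from probe base composition, quantile normalization, median polish). Versions in the submitters' processing notes are GCRMA 2.28.0 and R 2.15.1. The deposited log2 table of 54675 probe sets was used without the unspecific filter of the study, for which the sources used here give no criterion. Array medians were 3.08 (Padma 28) and 3.13 (EtOH). Quantile normalization removes any difference that is shared by most genes, and GCRMA compresses values near background.

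Genes were named from the platform annotation: 41098 probe sets had 1 gene, 1800 several and 11777 none. All 21304 Entrez identifiers found in the RefSeq table of GRCh38.p14 kept their symbol. The brightest own probe set (mean of both arrays) stood for its gene. The fold threshold was 2, as in the methods of the study. Where 1 array lay below its limit, the fold was taken against that limit and is given as "at least", while counts past 2-fold use the measured difference. All members and the other ALDH genes were named, and of each related list the genes past 2-fold and those with the largest differences above background. Further list members were named for their role. The members and lists were chosen with earlier results of these data known. With 1 array per treatment there is no p-value, standard deviation or interval, and their number limits how precise a value is. The quantitative PCR that the study ran on some of the genes was not used here. The probe set choice and the counts past 2-fold were tested on simulated data, with the same effect on all probe sets of a gene. The background limit and the folds taken against it were not tested in this way. Promoters are from RefSeq (GRCh38.p14). Software was matplotlib 3.10.9, statsmodels 0.14.6, pandas 2.3.3 and numpy 2.4.6 under Python 3.11.15.

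The 12 alternatives were another probe set per gene (that with the largest difference, or the median of all of them), a minimum of 2 or of 3 log2 units over the most frequent value on at least 1 array, the addition of 16 or 64 to the linear values, centring on the median, along a loess curve (span 0.3) or by repeated quantile normalization, the omission of _x_at and _s_at probe sets, counting shared probe sets for each gene, and a 1.5-fold threshold.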

Additional observations from a re-analysis of the deposited data

How the results depend on the processing

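The counts of aldehyde dehydrogenases more than 2-fold higher (1) and lower (0) were the same under all 12 alternatives, and ALDH1A1 ran from 1.26 to 1.34 over the 11 that give it a difference. ALDH1A1 has 1 probe set, which is well above background and neither _x_at nor _s_at. The choice of probe set, the background filters and the counting of shared probe sets therefore could not change its value. Among the other ALDH genes, 0 were more than 2-fold higher with the median over all probe sets, in which ALDH1L1 is averaged with a probe set below background. With a 1.5-fold threshold 2, ALDH1L1 and ALDH1L2, were higher and 1, ALDH4A1, lower. ALDH1L2 passed by its measured difference of 0.82, but its EtOH value was below the limit, against which it was at least 1.17-fold higher. Of 101 values of single members, 3 moved by at least the gap between probe sets: ALDH1B1 to 0.13 (the opposite direction) and ALDH7A1 to -0.51 with the probe set of the largest difference, and ALDH5A1 to 0.18 with the median. The values of ALDH7A1 and ALDH5A1 there take in probe sets below background. Without _x_at and _s_at probe sets, ALDH1A2, ALDH1B1 and ALDH3A2 had none left. The filters left out the members below background. Centring on the median shifted all genes by 0.05. No replicate could be left out. No paired analysis was possible because each treatment has 1 array. Values near background carry no fold, and the arrays, 1 per treatment, give no spread between cultures.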
